A study of Mus musculus with 8 samples.

Results

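The genes described here are 10 transcription factors that set up and hold B cell identity: Pax5, Ebf1, Tcf3, Bach2, Bcl6, Spib, Ets1, Irf8, Ikzf1 and Ikzf3. They were looked up by symbol among the 23302 entries of the deposited table of normalized counts, and all 10 had an entry. All 10 also passed the filter on low values (mean normalized count of 10 or more) and were among the 13011 genes tested.

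B cell precursors are specified by the E protein encoded by Tcf3 and by Ebf1, which together switch on Pax5, the factor that commits cells to the B lineage and keeps genes of other lineages silent. In mature B cells Bach2 and Bcl6 hold back the plasma cell program, the ETS factors Spib and Ets1 and the interferon regulatory factor Irf8 support the follicular and naive state, and the zinc finger proteins encoded by Ikzf1 and Ikzf3 tune B cell receptor signalling. Terminal differentiation runs through Irf4, Prdm1 and Xbp1, which these repressors oppose.

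RNA was sequenced from naive B cells of the spleen of C57BL/6 mice, in 8 libraries that form 4 groups of 2. The groups were EBi3KO tumor (B cells lacking Ebi3, a chain of interleukin-35, in mice bearing a tumor), EBi3KO nontumor, WT tumor and WT nontumor. Pancreatic cancer is named in the title of the study. The sources used here do not state the driver of the Ebi3 deletion, the age of the mice or whether a group's libraries stem from separate animals. The p-values therefore reflect the spread of these libraries alone, which may be technical. Tumor status is labelled either Tumor or WT, and the WT label was read as nontumor, a reading on which every tumor comparison rests.

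The libraries held between 21291892 and 28297319 reads. Ebi3 was covered by 10 and 12 reads in EBi3KO tumor, 10 and 9 in EBi3KO nontumor, 253 and 208 in WT tumor and 8 and 8 in WT nontumor libraries, so that it separated the genotypes in tumor mice and did not in nontumor mice. Xist had 19760 and 26190 normalized counts in WT tumor and at most 18.3 in every other library, while the Y-linked Eif2s3y was at 0 in both WT tumor libraries and at 2355 or more elsewhere. The titles of the WT tumor libraries also carry another prefix than the other 6. Any comparison with WT tumor therefore holds a difference in sex and in title prefix that cannot be told apart from tumor or genotype, while tumor against nontumor within EBi3KO, and EBi3KO against WT within nontumor mice, hold neither. The libraries of EBi3KO tumor agreed more closely (chi-square per degree of freedom 2.01 over genes) than those of the other groups (13.1 to 20.3), although still beyond counting noise, and a fit with their average as 1 sample, chosen after the data were seen, is given where it ends the call of a member. Quantile normalization is likewise given where it moves a member's called value by over 1.5 times.

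The upstream sequences of 4 members are shown because Bach2, Ebf1 and Bcl6 differed most with tumor in WT mice among the members with an entry, and because Spib holds overlapping cores for EBF1, a factor of the same network. RefSeq promoter entries were matched for 8 of the 10 members, 12 entries in all. For a gene with more than 1 entry the one with a match is shown. The other entries of Ebf1 and Bcl6, and those of Pax5 and Tcf3, held no match to any motif searched. The 250 bases before the start site are printed 5′ to 3′ on the strand of the gene, from GRCm38.p6: Bach2 at chr4:32417185-32417434 on the plus strand, Ebf1 at chr11:44619978-44620227 on the plus strand, Bcl6 at chr16:23981284-23981533 on the minus strand and Spib at chr7:44532072-44532321 on the minus strand. Capitals mark a match, on either strand, to GAANNGAAA (the core of the composite element bound by an ETS factor such as Spi-B together with an IRF) in Bach2 and Bcl6, to TGGGAA (an Ikaros core) in Ebf1 and to CCCNNGGG (an EBF core) in Spib.
Bach2: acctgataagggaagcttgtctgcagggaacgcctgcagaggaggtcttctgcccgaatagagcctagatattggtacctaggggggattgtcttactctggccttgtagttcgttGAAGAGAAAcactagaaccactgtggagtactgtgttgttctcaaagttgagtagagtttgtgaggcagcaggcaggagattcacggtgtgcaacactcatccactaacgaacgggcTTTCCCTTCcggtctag
Ebf1: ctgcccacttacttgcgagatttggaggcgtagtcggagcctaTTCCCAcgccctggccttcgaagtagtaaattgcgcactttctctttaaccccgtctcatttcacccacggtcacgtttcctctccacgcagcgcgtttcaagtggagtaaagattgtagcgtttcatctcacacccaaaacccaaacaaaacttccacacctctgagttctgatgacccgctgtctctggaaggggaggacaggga
Bcl6: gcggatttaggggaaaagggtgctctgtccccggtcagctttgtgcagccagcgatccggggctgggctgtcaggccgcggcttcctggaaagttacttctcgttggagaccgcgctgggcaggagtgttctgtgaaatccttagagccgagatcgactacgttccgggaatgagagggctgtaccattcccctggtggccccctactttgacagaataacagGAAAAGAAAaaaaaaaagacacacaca
Spib: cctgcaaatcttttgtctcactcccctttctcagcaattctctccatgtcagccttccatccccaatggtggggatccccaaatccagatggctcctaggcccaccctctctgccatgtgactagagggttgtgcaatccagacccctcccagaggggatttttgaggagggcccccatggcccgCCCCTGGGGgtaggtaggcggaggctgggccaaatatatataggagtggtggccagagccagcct
The composite letters began 134 and 17 bases before the start site of Bach2 and 27 bases before that of Bcl6, the Ikaros letters 207 bases before that of Ebf1, and a pair of overlapping EBF cores 65 and 64 bases before that of Spib. Among 32851 promoters of the same length, 6.31% held the composite letters, 21.6% the Ikaros core and 11.8% the EBF core. The 2 other motifs searched, the E-box CAGGTG (17.2% of all promoters) and the octamer ATGCAAAT (1.6%), were in none of these 4 windows. The windows of Ebf1, Bcl6 and Spib were chosen for holding a match, so these shares do not test them. Start sites are those of the entries shown, and the windows of Bach2, Ebf1 and Bcl6 lie within the gene positions given below. Such matches describe the letters and do not show binding.

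Per kilobase of the longest annotated transcript of each gene, Spib and Ets1 stood highest and Ebf1 or Pax5 lowest in all 4 groups. In EBi3KO tumor the order from high to low was Spib (5927 ± 62.2 normalized counts per kb, SD, n = 2), Ets1 (5059 ± 28.3), Irf8, Ikzf1, Tcf3, Ikzf3, Bcl6 (460 ± 3.87), Pax5 (413 ± 0.704), Bach2 (352 ± 3.32) and Ebf1 (230 ± 1.32). The same order held in EBi3KO nontumor, where Bcl6 and Pax5 overlapped between libraries, and in WT nontumor. WT tumor alone had another order: Ikzf3 (3202 ± 379 per kb) stood above Ikzf1 (2883 ± 28.6) and Irf8 (2816 ± 151), which overlapped, Bach2 (967 ± 71.5) stood above Bcl6 (623 ± 0.332), and Pax5 (438 ± 1.09) was last, below Ebf1 (509 ± 54.5). The 10 genes together took 0.344% and 0.345% of reads in EBi3KO tumor and 0.288% and 0.287% in EBi3KO nontumor libraries. They took 0.539% and 0.559% in WT tumor and 0.271% and 0.255% in WT nontumor libraries. Shares of reads are on another scale than the normalized counts compared below. Irf8 took 0.0466% and 0.044% in WT tumor and 0.0383% and 0.0386% in WT nontumor, although its normalized count was lower in WT tumor.

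**Figure D1:**
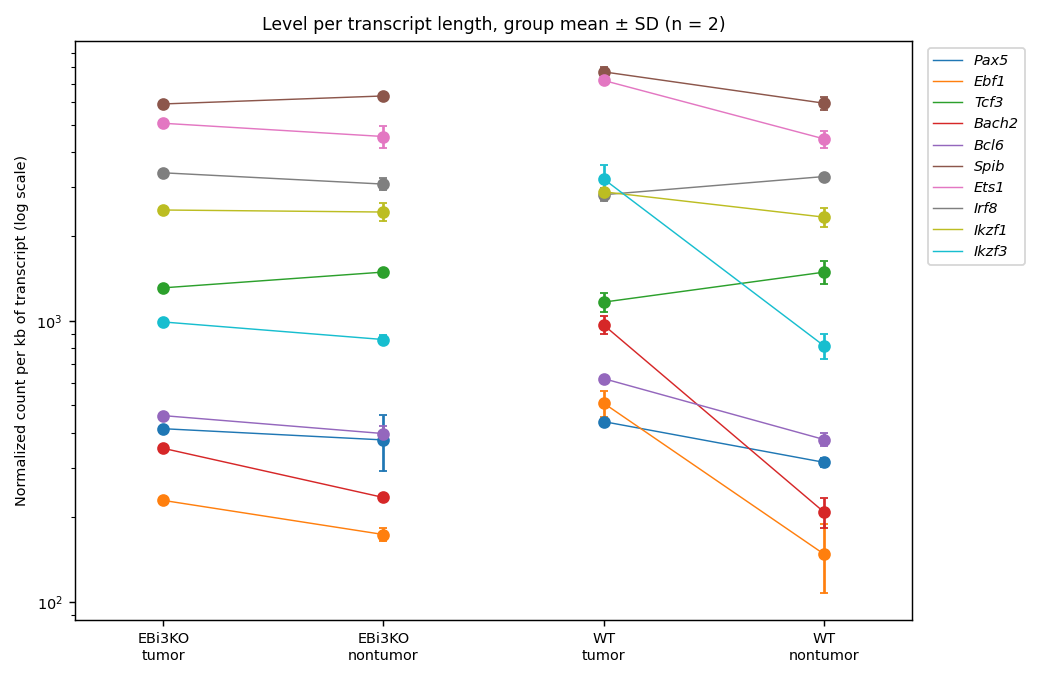
Level of each of the 10 genes as normalized count per kb of transcript (log scale), points giving group means and bars the SD of the 2 libraries, with lines joining tumor and nontumor of a genotype. Ikzf3, Bach2 and Ebf1 lie higher in WT tumor than in the other 3 groups, while the order is otherwise largely kept.

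Differences below are on the log2(normalized count + 1) scale with limma's standard error, and a gene was called where the two-sided limma test, adjusted by Benjamini-Hochberg over the 13011 genes, fell under 0.05. Where it matters a value is also given after each library was corrected for its smooth trend with transcript length and GC content, called the length-GC correction. Ebf1, which opens chromatin at B lineage genes (chr11:44617317-45008091, plus strand, GRCm38), had 1379 and 1368 normalized counts in EBi3KO tumor, 1076 and 1000 in EBi3KO nontumor, 2816 and 3277 in WT tumor and 1056 and 712 in WT nontumor libraries. Both WT tumor libraries stood above all others, and both EBi3KO tumor libraries lay above all 4 nontumor libraries without overlap. The log2 difference was 1.81 (SE 0.16, adjusted p = 1.25e-05) for tumor in WT and 0.40 (SE 0.16, adjusted p = 0.0843) for tumor in EBi3KO. The EBi3KO difference passed the threshold in DESeq2 (0.41, adjusted p = 0.0368), in a fit of the compared libraries alone (adjusted p = 0.0129) and in fits without WT nontumor replicate 1 (adjusted p = 0.0101) or 2 (adjusted p = 0.0102). In tumor mice Ebf1 fell by 1.14 in EBi3KO relative to WT (SE 0.16, adjusted p = 0.000445).

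Pax5 (chr4:44524757-44710487, minus strand) had 3304 and 3312 normalized counts in EBi3KO tumor, 3497 and 2537 in EBi3KO nontumor, 3499 and 3512 in WT tumor and 2581 and 2440 in WT nontumor libraries. The libraries of EBi3KO nontumor lay apart, one level with the tumor groups and one level with WT nontumor. The tumor difference in WT was 0.48 (SE 0.13, adjusted p = 0.00727), and -0.44 with the length-GC correction, while in EBi3KO it was 0.15 (SE 0.13, adjusted p = 0.379). The EBi3KO value was 0.38 and called without EBi3KO nontumor replicate 1 (adjusted p = 0.00958) and -0.08 without replicate 2 of that group (adjusted p = 0.469), so 1 library decides its direction. Between the tumor groups Pax5 differed by -0.08 (EBi3KO minus WT, SE 0.13, adjusted p = 0.59). Its interaction was -0.33 (SE 0.18, adjusted p = 0.155), but -0.10 (adjusted p = 0.413) without EBi3KO nontumor replicate 1 and -0.56 (adjusted p = 0.00309) without EBi3KO nontumor replicate 2.

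Tcf3 (chr10:80409514-80433647, minus strand) encodes the E2A proteins, which bind E-boxes as dimers and are held inactive by the ID proteins. It had 3834 and 3909 normalized counts in EBi3KO tumor, 4468 and 4339 in EBi3KO nontumor, 3638 and 3250 in WT tumor and 4112 and 4689 in WT nontumor libraries. All 4 tumor libraries lay below all 4 nontumor libraries. The tumor difference was called in WT (-0.35, SE 0.09, adjusted p = 0.00462) and not in EBi3KO (-0.19, SE 0.09, adjusted p = 0.123), with an interaction of 0.17 (SE 0.12, adjusted p = 0.273). With the length-GC correction the WT difference was 0.05 (adjusted p = 0.396). Between the tumor groups Tcf3 was not called, but it was called higher in EBi3KO with quantile normalization (0.29, adjusted p = 0.0172), upper-quartile scaling (0.23, adjusted p = 0.0496) and the compared libraries alone (0.17, adjusted p = 0.0345), and lower with the length-GC correction (-0.16, adjusted p = 0.0339).

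Bach2, which represses Prdm1 and heme and oxidative stress genes (chr4:32238804-32586108, plus strand), had 3146 and 3105 normalized counts in EBi3KO tumor, 2127 and 2049 in EBi3KO nontumor, 8141 and 9039 in WT tumor and 2016 and 1690 in WT nontumor libraries. The 4 nontumor libraries were lowest, the EBi3KO tumor libraries intermediate and the WT tumor libraries highest, with no overlap between these 3 levels. The tumor difference was 2.22 in WT (SE 0.09, adjusted p = 3.8e-07) and 0.58 in EBi3KO (SE 0.09, adjusted p = 0.00406), and the difference between these was -1.63 (SE 0.13, adjusted p = 0.000117). The EBi3KO call was kept in all 20 alternatives run, with a log2 difference of 0.35 to 0.62 and a highest adjusted p of 0.0472. The WT difference was 1.12 after the length-GC correction, and its call was kept in all 22 alternatives. Bach2 was the member with a pair of composite letters in its printed upstream sequence.

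Bcl6, the repressor needed for the germinal center reaction (chr16:23965052-23988852, minus strand), had 1799 and 1820 normalized counts in EBi3KO tumor, 1494 and 1630 in EBi3KO nontumor, 2450 and 2452 in WT tumor and 1433 and 1542 in WT nontumor libraries. It kept the same 3 levels as Bach2 over a narrower range. With a tumor Bcl6 differed by 0.72 in WT (SE 0.08, adjusted p = 2.91e-05) and 0.21 in EBi3KO (SE 0.08, adjusted p = 0.0583). The EBi3KO value passed the threshold in edgeR (0.23, adjusted p = 0.0422), with quantile normalization (adjusted p = 0.0431) and without WT nontumor replicate 1 (adjusted p = 0.038) or 2 (adjusted p = 0.0384). In tumor mice Bcl6 fell by 0.44 in EBi3KO relative to WT (SE 0.08, adjusted p = 0.00123).

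Spib encodes Spi-B (chr7:44525993-44532071, minus strand), a close relative of PU.1 that works with it in B cell receptor signalling. It had 16402 and 16647 normalized counts in EBi3KO tumor, 17853 and 17439 in EBi3KO nontumor, 22110 and 20885 in WT tumor and 16016 and 17237 in WT nontumor libraries. Both WT tumor libraries were above the other 6, among which EBi3KO tumor lay below EBi3KO nontumor. With a tumor Spib differed by 0.37 in WT (SE 0.07, adjusted p = 0.00146) and -0.09 in EBi3KO (SE 0.07, adjusted p = 0.34). In tumor mice Spib fell by 0.38 in EBi3KO relative to WT (SE 0.07, adjusted p = 0.00233). Scaling moved these sizes: the tumor difference in WT was 1.13 with quantile normalization and 0.64 with the length-GC correction, and the genotype difference in tumor mice was -0.88 with quantile normalization and -0.58 with the length-GC correction.

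Ets1 (chr9:32636221-32757820, plus strand) restrains plasma cell formation in mice. It had 25803 and 25600 normalized counts in EBi3KO tumor, 21581 and 24523 in EBi3KO nontumor, 36229 and 36792 in WT tumor and 23743 and 21482 in WT nontumor libraries. The WT tumor libraries stood clear of all others, and both EBi3KO tumor libraries lay above all 4 nontumor libraries by a margin smaller than the spread within EBi3KO nontumor. For Ets1 tumor bearers differed by 0.69 in WT (SE 0.09, adjusted p = 0.000105) and 0.16 in EBi3KO (SE 0.09, adjusted p = 0.191). In tumor mice Ets1 fell by 0.51 in EBi3KO relative to WT (SE 0.09, adjusted p = 0.0014), a call that ended with the length-GC correction (-0.16, adjusted p = 0.101). The tumor difference of Ets1 in WT was 0.22 with that correction and 1.79 with quantile normalization, which gave -1.32 between the genotypes in tumor mice and called Ets1 in EBi3KO (0.37, adjusted p = 0.0175).

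Irf8 pairs with PU.1 or Spi-B in B cells and is also a main factor of monocytes and dendritic cells (chr8:120736358-120756694, plus strand). It had 11655 and 11725 normalized counts in EBi3KO tumor, 10276 and 11034 in EBi3KO nontumor, 10138 and 9398 in WT tumor and 11148 and 11527 in WT nontumor libraries. WT tumor was lowest and EBi3KO tumor highest, so that Irf8 was the only member called higher in EBi3KO than in WT tumor mice. The tumor difference was -0.22 in WT (SE 0.07, adjusted p = 0.0228) and 0.13 in EBi3KO (SE 0.07, adjusted p = 0.179), with an interaction of 0.35 (SE 0.10, adjusted p = 0.0202). In tumor mice Irf8 rose by 0.26 in EBi3KO relative to WT (SE 0.07, adjusted p = 0.0139). These calls depend on single libraries and on the spread shared by all groups. The WT call ended without EBi3KO tumor replicate 1 or 2, which are not in that contrast and left its value at -0.22. It also ended in the fit of the compared libraries alone, without WT tumor replicate 2 (-0.16) and without WT nontumor replicate 2 (-0.19). Quantile normalization gave 0.002 in WT and a call in EBi3KO (0.29, adjusted p = 0.013). The genotype and interaction calls of Irf8 ended without either EBi3KO tumor library (0.26, adjusted p = 0.0845 and 0.0938 for the genotype; 0.36 and 0.35, adjusted p = 0.0808 and 0.0877 for the interaction) and without WT tumor replicate 2 (0.20, adjusted p = 0.0897, and 0.30, adjusted p = 0.0692). With the EBi3KO tumor libraries averaged, Irf8 was called neither for tumor in WT (adjusted p = 0.0568), nor between genotypes in tumor mice (adjusted p = 0.0894), nor in the interaction (adjusted p = 0.085).

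Ikzf3, encoding Aiolos (chr11:98464902-98546031, minus strand), had 4610 and 4528 normalized counts in EBi3KO tumor, 4055 and 3856 in EBi3KO nontumor, 13516 and 15988 in WT tumor and 4027 and 3487 in WT nontumor libraries. Both WT tumor libraries stood far above the other 6, and the EBi3KO tumor libraries lay just above all 4 nontumor libraries. For Ikzf3 tumor bearers differed by 1.97 in WT (SE 0.10, adjusted p = 8.16e-07) and 0.21 in EBi3KO (SE 0.10, adjusted p = 0.132). The interaction of -1.76 (SE 0.14, adjusted p = 0.000106) was the farthest from 0 among the 10 members.

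Its paralog Ikzf1, encoding Ikaros (chr11:11685003-11772926, plus strand), had 12770 and 12885 normalized counts in EBi3KO tumor, 11957 and 13265 in EBi3KO nontumor, 14783 and 14991 in WT tumor and 12742 and 11456 in WT nontumor libraries. WT tumor lay above the other 6 libraries, and the EBi3KO groups overlapped. The tumor difference was 0.30 in WT (SE 0.08, adjusted p = 0.00813) and 0.03 in EBi3KO (SE 0.08, adjusted p = 0.818). The WT call ended without WT nontumor replicate 2 (0.22, adjusted p = 0.0549), and the value was -0.19 with the length-GC correction. Ikzf1 thus moved far less than Ikzf3, at the edge of the threshold. In tumor mice Ikzf1 fell by 0.21 in EBi3KO relative to WT (SE 0.08, adjusted p = 0.0486), a call that ended in edgeR (-0.21, adjusted p = 0.0522) and when any 1 tumor library was left out (adjusted p = 0.105 to 0.192). That call also ended with the EBi3KO tumor libraries averaged (adjusted p = 0.182), with no filter (adjusted p = 0.0699), with upper-quartile scaling (-0.16, adjusted p = 0.14) and without the variance trend (adjusted p = 0.0889). Quantile normalization gave 0.66 for Ikzf1 in WT and -0.39 between the genotypes. Its interaction of -0.27 (SE 0.12, adjusted p = 0.0754) passed the threshold without EBi3KO nontumor replicate 1 (-0.35, adjusted p = 0.0381) or WT nontumor replicate 1 (-0.35, adjusted p = 0.0338) and with quantile normalization (-0.52, adjusted p = 0.00424).

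**Figure D2:**
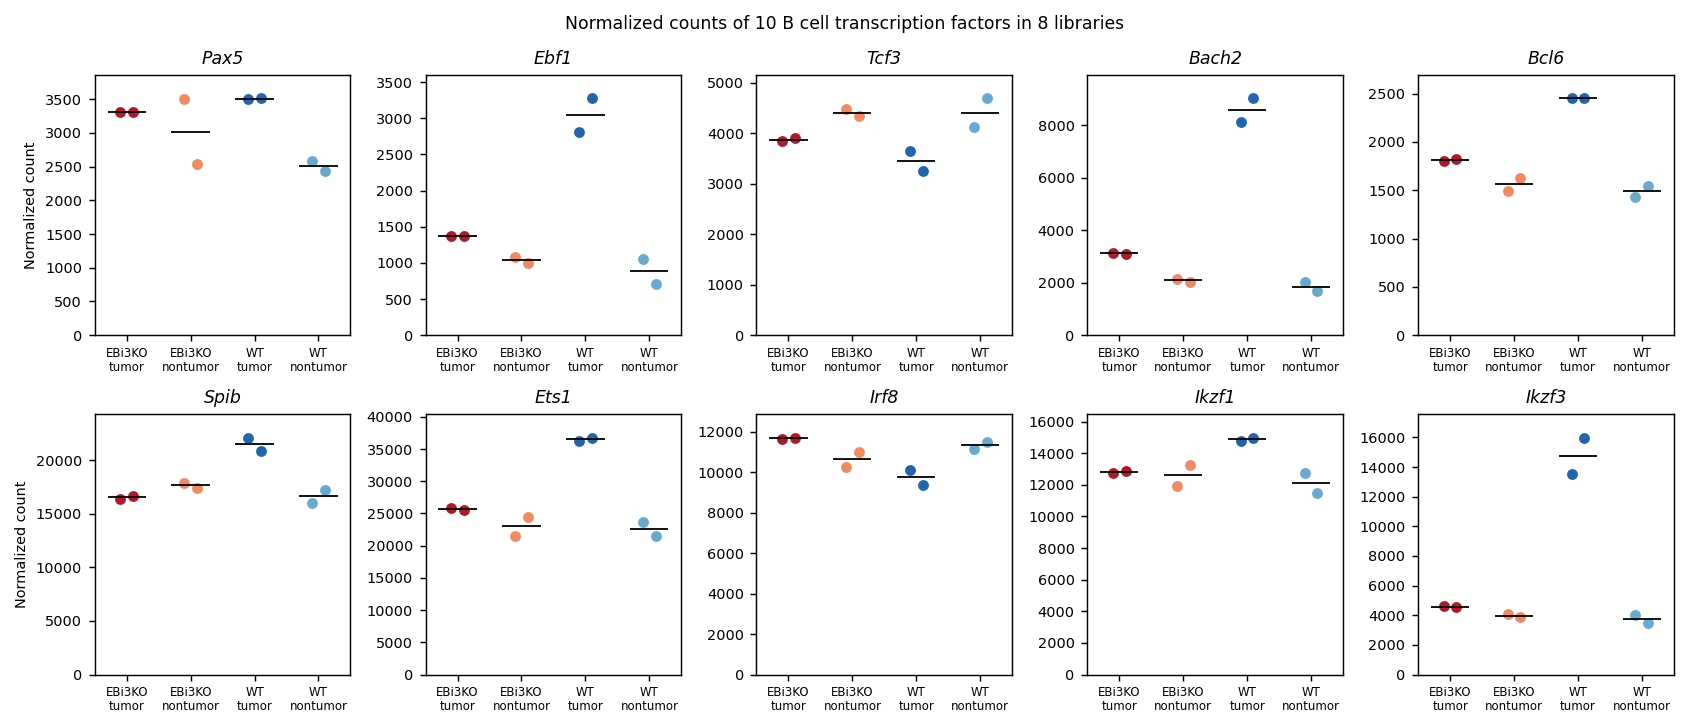
Normalized counts of each of the 10 genes in the 8 libraries (points) with group means (lines), each axis starting at 0. Bach2, Ebf1 and Ikzf3 stand far higher in both WT tumor libraries than in the other 6, and the panels of Irf8 and Tcf3 show WT tumor as the lowest group.

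In WT mice, B cells of tumor bearers had more RNA of 8 of the 10 factors and less of the remaining pair. Bach2 (4.65-fold), Ikzf3 (3.92-fold) and Ebf1 (3.5-fold) rose most, Bcl6 (1.65-fold), Ets1 (1.62-fold), Pax5 (1.40-fold), Spib (1.29-fold) and Ikzf1 (1.23-fold) rose less, and Tcf3 (0.783-fold) and Irf8 (0.861-fold) fell, although Pax5 and Ikzf1 turned lower and Tcf3 was at 0.05 with the length-GC correction and Irf8 was at 0.002 with quantile normalization. Of all tested genes 39.6% were called higher and 40.1% lower in this comparison, together 79.8%, so a call alone says little about any one gene. The median log2 difference of the 10 genes was 0.59, against 0.01 over all tested genes. With quantile normalization it was 0.89 against 0.03, and with the length-GC correction 0.40 against 0.02.

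In EBi3KO mice, B cells of tumor bearers differed from those of nontumor mice in only 1 of the 10 factors by this test: Bach2 rose 1.5-fold. Of all tested genes 14.1% were called higher and 18.5% lower, together 32.6%. These were 1841 higher and 2401 lower, against 2477 higher and 2130 lower with quantile normalization. The median of the 10 genes was 0.16, against -0.01 over all. Leaving out EBi3KO tumor replicate 1 or 2 or EBi3KO nontumor replicate 2 took the number of genes called from 4242 to 788, 756 and 1213. The members called numbered 2 without EBi3KO nontumor replicate 1 (Bach2 and Pax5) and 3 without WT nontumor replicate 1 or 2 (Bach2, Ebf1 and Bcl6). The remaining 9 lay between -0.19 for Tcf3 and 0.40 for Ebf1 on the log2 scale, and a p above the threshold does not show that they were equal.

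Among tumor mice, 7 factors were lower in EBi3KO than in WT B cells and Irf8 was higher, while Pax5 and Tcf3 were not called. With the length-GC correction Ikzf1 turned to 0.15 and Ets1 was no longer called. Of all tested genes 28.6% were called lower and 31.9% higher (60.5% in either direction). Ikzf3 stood at 0.311 times, Bach2 at 0.364 times and Ebf1 at 0.452 times the WT tumor level. With the length-GC correction the log2 difference was -1.40 for Ikzf3 (-1.69 without it), -0.70 for Bach2 (-1.46 without it) and -0.65 for Ebf1 (-1.14 without it). Among nontumor mice, none of the 10 factors was called between EBi3KO and WT, in a comparison where 0% of the 13011 genes were called by limma (1049 at an unadjusted p under 0.05), 0 by edgeR and 21 by DESeq2. The interaction subtracts the tumor effect of WT mice from that of EBi3KO mice. It was called lower for 6 factors and higher for Irf8, against 25.4% and 27.5% of all genes (52.9% together). With the length-GC correction the interaction of Bach2 was -0.78 and that of Ebf1 -0.86, against -1.63 and -1.40 without it. These comparisons share the WT tumor or EBi3KO tumor libraries and are not independent of one another.

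**Figure D3:**
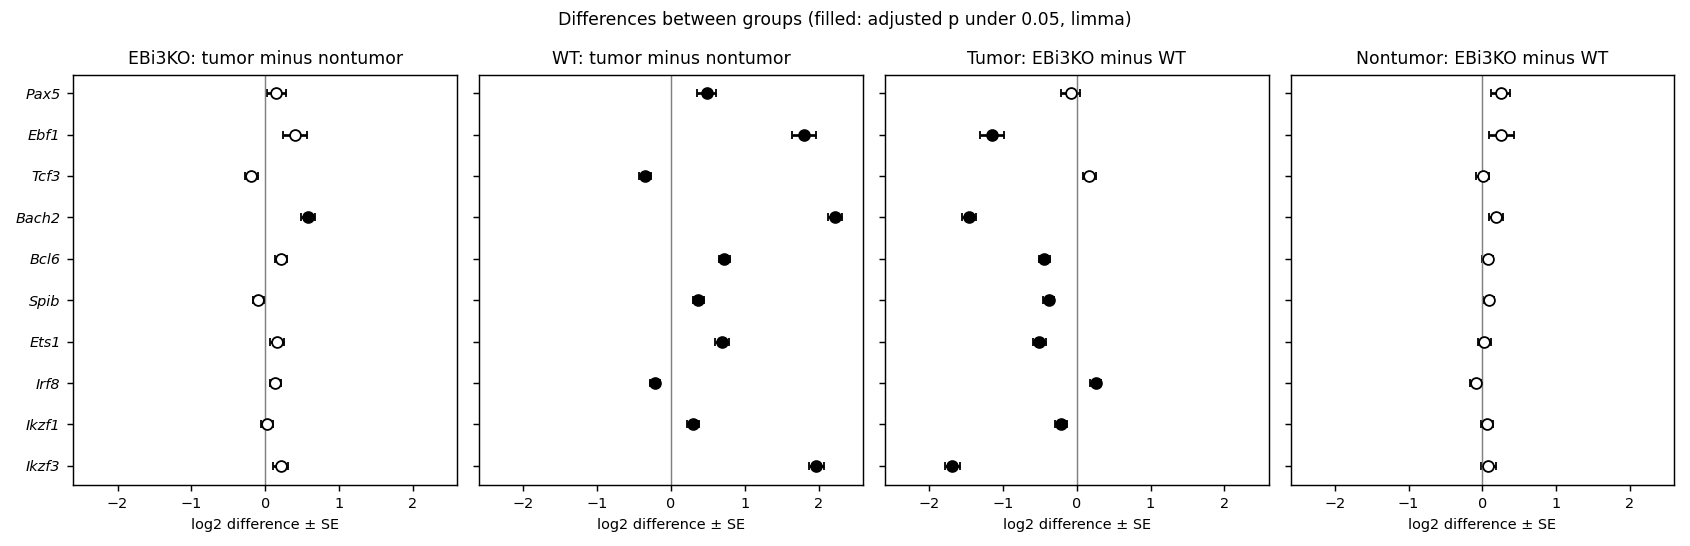
Log2 differences of the 10 genes with limma's standard errors in 4 comparisons, filled points marking an adjusted p under 0.05 over all 13011 genes. All 10 points are filled for tumor against nontumor in WT, only Bach2 for the same contrast in EBi3KO, and none between the genotypes in nontumor mice.

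Within a library, ratios between some partner genes set WT tumor apart, as values with no test and for pairs chosen after earlier results were known. The count of Ikzf3 was 0.356 times that of Ikzf1 on average in EBi3KO tumor, 0.315 in EBi3KO nontumor, 0.990 in WT tumor and 0.310 in WT nontumor. Spib stood at 8.23 times the count of Sfpi1, which encodes PU.1, in EBi3KO tumor, 7.26 times in EBi3KO nontumor, 17.7 times in WT tumor and 6.57 times in WT nontumor. Both ratios were thus similar in 3 groups and higher in WT tumor. The ratio of Bach2 to Prdm1, the plasma cell repressor, was 18.9 in EBi3KO tumor, 18.8 in EBi3KO nontumor, 70.6 in WT tumor and 15.7 in WT nontumor. In EBi3KO mice the mean of Prdm1 was 165 normalized counts with a tumor and 112 without, so that its ratio with Bach2 was level. The ratio of Tcf3 to its inhibitor Id2 was 2.35 in EBi3KO tumor, 1.82 in EBi3KO nontumor, 7.43 in WT tumor and 1.46 in WT nontumor, although Tcf3 itself was lowest in WT tumor. Irf8 to Irf4 ran the other way, at 1.75 in EBi3KO tumor, 2.88 in EBi3KO nontumor, 1.41 in WT tumor and 3.47 in WT nontumor. Pax5 to Prdm1 averaged 20.04 in EBi3KO tumor, 27.4 in EBi3KO nontumor, 28.8 in WT tumor and 21.4 in WT nontumor. WT tumor was highest by mean, but EBi3KO nontumor replicate 1 (33.8) lay above both WT tumor libraries (29.2 and 28.4). Tcf3 to Id3 was close in both tumor groups, at 3.43 in EBi3KO tumor, 2.41 in EBi3KO nontumor, 3.91 in WT tumor and 2.71 in WT nontumor. Of the 10 pairs computed, the ratios of Bach2 to Bach1 and of Bcl6 to Prdm1 were also highest in WT tumor, and that of Tcf3 to Tcf4 was lowest there.

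**Figure D4:**
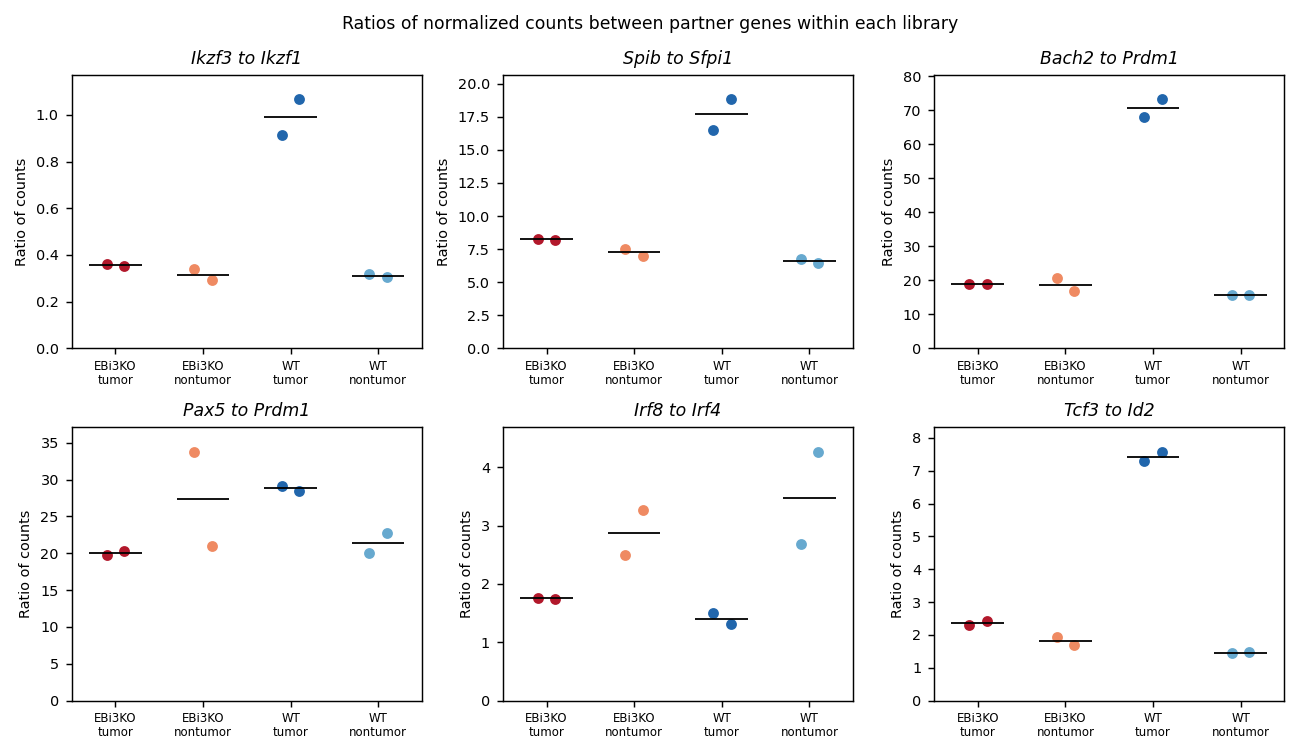
Ratios of normalized counts between partner genes in each library (points) with group means (lines), not corrected for transcript length. The ratios of Ikzf3 to Ikzf1, Spib to Sfpi1, Bach2 to Prdm1 and Tcf3 to Id2 stand apart in both WT tumor libraries.

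Relatives and partners of the 10 factors were counted in lists. For tumor in WT, 39.6% of all tested genes were called higher and 40.1% lower. In WT tumor against WT nontumor, 8 of 11 tested other ETS factors rose and 1 fell (median log2 difference 0.49). Elk4 (3.05, SE 0.19) and Elf4 (1.17, SE 0.08), which limits T cell proliferation in mice, rose, and Sfpi1, also abundant in myeloid cells, fell by 1.05 (SE 0.10). Of 7 other IRF factors 4 rose and 2 fell, among them Irf4 (1.05, SE 0.18), which drives activated B cells toward plasma cells, and Irf2 (0.52, SE 0.06), while 6 were called higher and 0 lower with the length-GC correction. Among 4 E proteins and ID inhibitors, Id2 fell by 2.70 (SE 0.10) and Id3 by 0.88 (SE 0.16), while Tcf12 (0.85, SE 0.12) and Tcf4 (0.92, SE 0.08), which encode E proteins, rose. The calls of Id3 (-0.03) and Tcf12 (0.14) ended and Tcf4 turned to -0.25 with the length-GC correction. Of 4 BACH and small MAF partners 3 rose, with Bach1 at 0.77 (SE 0.11), a call that ended with that correction (0.14, adjusted p = 0.145). Among 6 corepressors of BCL6, 4 rose and 1 fell, with Ncor1 at 2.10 (SE 0.16) and Hdac3 at -0.44 (SE 0.07). The length-GC correction gave 2 higher and 3 lower of these 6, and turned their median from 0.49 to -0.26. Of 19 other B cell transcription factors 15 rose and 2 fell (median 0.95). Those that rose included Pou2f2 (2.10, SE 0.09), which encodes the octamer factor Oct-2, the NF-kB subunit Rel (2.37, SE 0.16) and Zfp318 (2.48, SE 0.17), needed for surface IgD. The length-GC correction left 13 of the 19 called higher and 1 lower (median 0.48). Over 22 alternatives the lowest value was 1.41 for Pou2f2, 1.41 for Rel and 1.05 for Zfp318.

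The known targets of the factors were also counted in WT, where 39.6% of all tested genes were called higher and 40.1% lower. Of 17 genes activated by EBF1 and PAX5, 11 rose and 5 fell (median 0.68). The inhibitory receptor gene Cd22 rose by 1.43 (SE 0.13) and Ciita, the master regulator of MHC class II, by 1.52 (SE 0.10). Those that fell included Cd79a (-0.52, SE 0.09), Cd79b (-0.54, SE 0.10) and Cd40 (-0.49, SE 0.07). Quantile normalization gave 14 higher and 2 lower, and the length-GC correction 12 higher and 2 lower. Of 9 genes repressed by PAX5, 7 fell and 1 rose (median -0.76): Csf1r, the receptor for M-CSF, fell by 3.11 (SE 0.10), Igj, which encodes the J chain of antibody polymers, by 2.92 (SE 0.12), and Notch1 rose by 1.27 (SE 0.11). Of 5 tested genes repressed by BACH2, 4 fell and none rose, with heme oxygenase Hmox1 at -3.71 (SE 0.13), Gclm, a glutathione synthesis subunit, at -2.07 (SE 0.10), and Prdm1 not called (0.05, SE 0.16). Of 13 genes repressed by BCL6, 3 rose and 5 fell (median -0.03), with the checkpoint kinase genes split, Atr at 1.71 (SE 0.15) and Chek1 at -1.42 (SE 0.15), against 3 higher and 8 lower (median -0.43) with the length-GC correction. Of 6 plasma cell transcription factors 4 rose and 1 fell, with Atf6 at 1.21 (SE 0.12) and Xbp1 at -0.43 (SE 0.09), a call that ended with the length-GC correction, under which 2 of the 6 were called higher and 1 lower (median -0.06).

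Markers of several other cell types moved with these lists. Shares called with a tumor over all tested genes were 39.6% higher and 40.1% lower in WT, and 14.1% higher and 18.5% lower in EBi3KO. All 14 monocyte and macrophage markers, among them Vcam1, Csf1r and C1qa, were called lower in WT tumor, where they summed to 0.0505% and 0.0445% of reads, against 0.373% and 0.399% in WT nontumor. In EBi3KO mice 12 of the 14 were called lower, with 0.232% and 0.230% in EBi3KO tumor and 0.345% and 0.434% in EBi3KO nontumor. All 10 erythroid markers in the table (of 12) were called lower with a tumor in both genotypes, at 0.292% and 0.301% in EBi3KO tumor, 1.08% and 1.56% in EBi3KO nontumor, 0.119% and 0.0887% in WT tumor and 0.677% and 0.624% in WT nontumor. Of the 7 plasma cell markers 5 were called higher and 1 lower with a tumor in EBi3KO, and 2 higher and 4 lower in WT. Sdc1 was called higher in both genotypes (0.54, SE 0.10, in EBi3KO and 0.68, SE 0.10, in WT) and Mzb1 lower in both (-0.27, SE 0.09, in EBi3KO and -1.63, SE 0.09, in WT). Their sum, led by Igj, which moved in opposite directions in the genotypes, came to 0.221% and 0.221% in EBi3KO tumor, 0.116% and 0.106% in EBi3KO nontumor, 0.0502% and 0.0448% in WT tumor and 0.149% and 0.134% in WT nontumor. The 8 conventional dendritic cell markers, relevant to Irf8, summed to 0.00505% and 0.00504% in EBi3KO tumor, 0.00581% and 0.00582% in EBi3KO nontumor, 0.00299% and 0.00259% in WT tumor and 0.00622% and 0.00667% in WT nontumor, and 7 of the 8 were called lower with a tumor in WT. In the same WT comparison 7 of 8 NK cell, 7 of 11 T cell, 9 of 9 granulocyte and 6 of 8 platelet markers were called lower, and 1 T cell marker was called higher. The T cell sum was level in that comparison, at 0.00709% and 0.00693% in WT tumor and 0.00702% and 0.00667% in WT nontumor. Of 7 plasmacytoid dendritic cell markers 3 were called lower and 1 higher there, and of 8 germinal center markers 1 was called each way. The germinal center sum differed within groups, at 0.00621% and 0.0176% in WT nontumor and 0.00641% and 0.0150% in EBi3KO nontumor. None of the markers in the table was at 0 in every library. In bulk RNA, fewer cells of a type and less RNA per cell cannot be told apart, and the part of these cells in the falls of Csf1r, Hmox1, Sfpi1, Id2 and Irf8 was not tested. The 8 follicular B cell markers in the table (of 9), among them Cd79a and Ms4a1, summed to 0.804% and 0.804% of reads in EBi3KO tumor, 0.704% and 0.664% in EBi3KO nontumor, 1.03% and 1.03% in WT tumor and 0.648% and 0.596% in WT nontumor. With a tumor in WT 5 of these 8 were called higher and 1, Cd79a (-0.52, SE 0.09), lower. As normalized counts they summed to 197830 and 197890 in EBi3KO tumor and 191400 and 189020 in EBi3KO nontumor. The sums were 224170 and 219840 in WT tumor and 188740 and 177940 in WT nontumor, a smaller difference than in the share of reads. That share was highest in WT tumor, the group in which most members were highest, and its part in those results was not tested.

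In EBi3KO mice most lists held fewer calls than in WT, as did all tested genes. Over all tested genes 14.1% were called higher and 18.5% lower, against 39.6% and 40.1% in WT. Of 19 other B cell transcription factors 8 were called higher with a tumor and none lower (median 0.24), with Zfp318 at 1.21 (SE 0.17, adjusted p = 0.00189). Of 17 genes activated by EBF1 and PAX5, 8 were called higher and none lower, with Ciita at 0.50 (SE 0.10), Cd22 at 0.61 (SE 0.13) and Tnfrsf13c, the BAFF receptor, at 0.34 (SE 0.08). Of 6 plasma cell transcription factors 4 were called higher, with Irf4 at 0.84 (SE 0.18), Xbp1 at 0.40 (SE 0.09) and Prdm1 at 0.56 (SE 0.16). Most of these calls ended with the EBi3KO tumor libraries averaged as 1 sample, a fit chosen after the data were seen, in which Zfp318 was the 1 gene of these 3 lists called. Of 5 tested genes repressed by BACH2, 3 were called lower and 1 higher, and with the average 3 lower and none higher. Hmox1 was -0.96 (SE 0.13), Gclm -1.26 (SE 0.10) and Nqo1, a quinone reductase, -2.39 (SE 0.25), and these calls were kept in all 20 alternatives, while monocyte markers, which move with Hmox1, were lower as given above. Of 9 genes repressed by PAX5, 5 were called higher and 2 lower, against 1 higher and 1 lower with the average. Among them were Igj at 1.29 (SE 0.12) and Csf1r at -0.92 (SE 0.10). Igj also leads the sum of plasma cell markers, and Csf1r is also a monocyte and macrophage marker. Neither is therefore separate from those markers. Of 13 genes repressed by BCL6, 5 were called higher and 5 lower, with the chemokine receptor Cxcr4 at 1.12 (SE 0.11) and Chek1 at -1.29 (SE 0.15), against 2 higher and 1 lower with the average.

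Smaller families showed few calls in EBi3KO mice, where 32.6% of all tested genes were called in either direction. Id2 (-0.56, SE 0.10) and Id3 (-0.69, SE 0.16) were called lower with a tumor, Elk4 was the 1 of 11 other ETS factors called (0.71, SE 0.19), Irf4 and Irf1 (0.49, SE 0.12) were the 2 of 7 other IRF factors, Bcor (0.37, SE 0.11) the 1 of 6 BCL6 corepressors, and none of the 4 BACH and small MAF partners was called by limma. Of these partners 1 was called higher in edgeR, with quantile normalization, with the compared libraries alone and with the length-GC correction, and DESeq2 called 2 of the BCL6 corepressors. Each of the limma calls in these families ended when either EBi3KO tumor library was left out, with log2 differences of 0.69 to 0.98 for Irf4 and -0.65 to -0.47 for Id2 over the 20 alternatives.

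Between the genotypes in tumor mice, the lists ran against the WT tumor effect, whose WT tumor libraries they share. Of 19 other B cell transcription factors 14 were lower and 1 higher in EBi3KO (Pou2f2 -1.19, SE 0.09), of 11 other ETS factors 8 were lower and 1 higher (Elf4 -0.92, SE 0.08; Sfpi1 0.72, SE 0.10), and of 17 genes activated by EBF1 and PAX5, 9 were lower and 3 higher (Ciita -0.77, SE 0.10). Of 9 genes repressed by PAX5, 7 were higher and 1 lower (Igj 3.60, SE 0.12), and of 5 repressed by BACH2, 4 were higher (Hmox1 2.46, SE 0.13). All 14 monocyte and macrophage markers were higher here too. Of all tested genes 28.6% were called lower and 31.9% higher. With the length-GC correction 9 of the 19 transcription factors were lower and none higher (median -0.20, against -0.69 without it). It left 5 of the 11 ETS factors lower and 2 higher, and 8 of the 17 activated genes lower and 2 higher. Of the repressed genes it gave 8 of 9 for PAX5 and 4 of 5 for BACH2 higher in EBi3KO. In nontumor mice no gene of any of the 12 lists was called between the genotypes by limma, while DESeq2 called 1 gene activated by EBF1 and PAX5 higher, and 1 repressed by PAX5 and 1 repressed by BCL6 lower.

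Transcript length moved with the same comparisons. Across 12868 genes with a known length and GC content, the log2 difference of WT tumor against WT nontumor had a Spearman correlation of 0.434 with length, and that between genotypes in tumor mice of -0.499, as descriptions across genes, which are not independent replicates. In EBi3KO tumor against nontumor it was 0.252, and for the interaction -0.48. Between genotypes in nontumor mice, where limma called 0 genes, it was 0.27. Ribosomal protein genes, which are short, took 18.0% and 18.1% of reads in EBi3KO tumor, 21.3% and 21.9% in EBi3KO nontumor, 10.3% and 8.83% in WT tumor and 23.4% and 23.9% in WT nontumor libraries. The members are long transcripts for the most part: Bach2, at 8882 bases, and Pax5, at 8004, are longer than 96.5% and 94.8% of these genes, Ebf1 (5981 bases) than 86.3%, and Tcf3 (2950 bases) and Spib (2788 bases) than 42.6% and 38.8%. With the length-GC correction, Bach2 (1.12), Ebf1 (1.13), Ikzf3 (1.60), Bcl6 (0.57), Spib (0.64) and Ets1 (0.22) were still called higher in WT tumor. Pax5 turned to -0.44 (adjusted p = 0.00785), and Ikzf1 to -0.19 (adjusted p = 0.0256), both called lower, Irf8 stayed lower and Tcf3 was no longer called. Between the genotypes in tumor mice the same correction left Pax5 called higher in EBi3KO (0.55, adjusted p = 0.00523) and Tcf3 called lower (-0.16, adjusted p = 0.0339), where other scalings called Tcf3 higher, as given above. The direction of Pax5, Ikzf1 and Tcf3 against WT tumor thus depends on this correction.

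**Figure D5:**
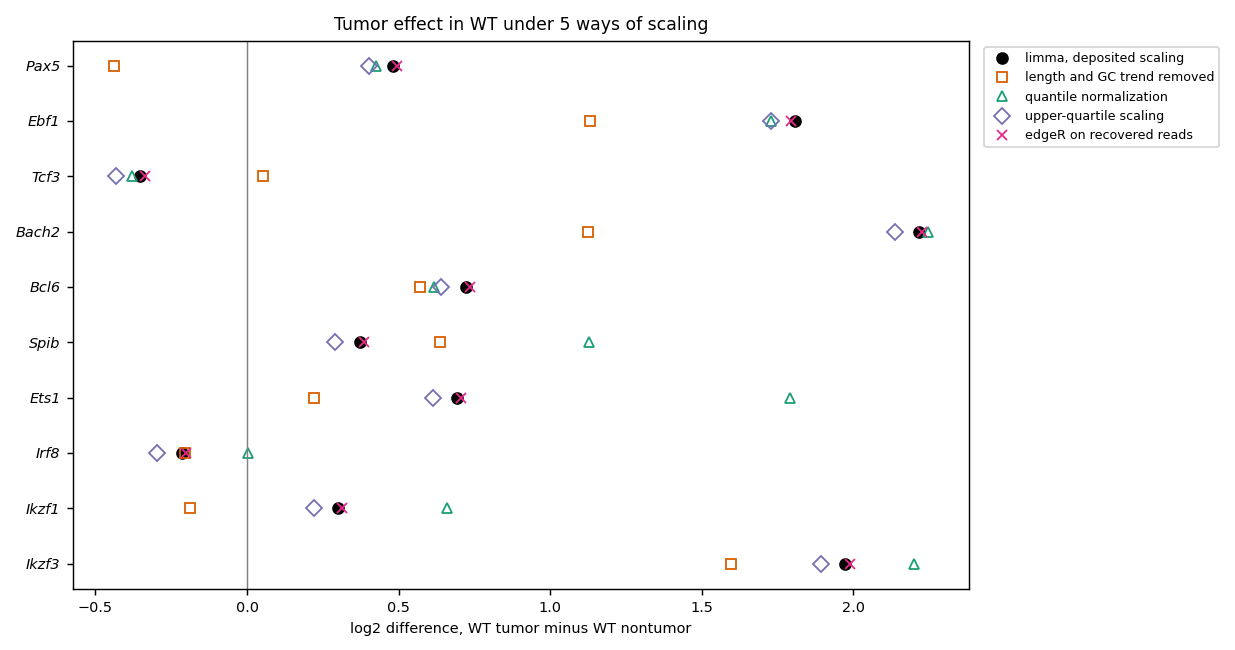
Log2 difference of WT tumor minus WT nontumor for the 10 genes under 5 ways of scaling (symbols). Bach2, Ebf1, Ikzf3, Bcl6, Spib and Ets1 stay above 0 under all 5, while Pax5 and Ikzf1 lie below 0 and Tcf3 just above 0 with the length-GC correction.

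The genes whose log2 values ran most like each member over the 8 libraries were named as a description, since the libraries of a group and the distance of WT tumor from the rest set most of such a correlation. For Bach2 they were Ncoa3 (r = 0.9992), Ssh2 and Otud4, for Ebf1 Slk (r = 0.9997), Fam179b and Aff3, a nuclear factor of lymphoid cells, and for Ikzf3 Osbpl8 (r = 0.9992), Sesn3 and Trim30d. Of 11981 genes compared, 3006 reached an r of 0.9 with Bach2, 3039 with Ebf1 and 2401 with Ikzf3, but 405 did with Pax5, 339 with Spib and 74 with Irf8. For Ets1 the second closest was Elf1 (r = 0.9971), another ETS factor. Among the members themselves, Bach2 correlated with Ebf1 at r = 0.989, with Ikzf3 at 0.980, with Pax5 at 0.706 and with Irf8 at -0.703 over the same 8 libraries.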

How the data were processed

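RNA of splenic B cells was prepared with a stranded mRNA kit and sequenced paired-end, per the labels' protocols. Per the submitters' processing notes, Salmon, DESeq2 and mm10 were used, with no versions stated. The table deposited by the authors holds DESeq2 normalized counts, a signal with 1 value per gene symbol and library. Dividing each library by its smallest step gave whole reads for 100% of values within a tolerance of 0.01, from which depth was taken.

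Genes with a mean of at least 10 were taken to log2 after adding a pseudocount of 1, and 1 limma 3.58.1 fit in R 4.3.3 with a mean per group gave all 5 comparisons (4 residual and 4.64 prior degrees of freedom, prior variance following the mean). Fold changes are on the log2(value + 1) scale, which understates changes of low genes. Alternatives were count tests on the recovered whole reads (edgeR 4.0.16, DESeq2 1.42.0), other scalings and filters, and leaving out libraries, and mgcv 1.9.3 removed length and GC trends. The limma script was run on simulated data in which 200 genes were changed in 1 group, with no length trend. Such data do not test it where most genes differ, as in WT tumor. Of the tested genes 98.9% had a length and GC content, those of the longest annotated transcript of the symbol. This transcript need not be the one expressed in these cells. Lengths and gene positions came from the GRCm38 annotation and promoter sequences from RefSeq. Of 206 list and marker genes 201 were matched, 4 under an older symbol (Sfpi1 for Spi1, Igj for Jchain, Emr1 for Adgre1, Beta-s for Hbb-bs).

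The 10 members and all lists were chosen with earlier results of these data known, so they lend no independent support. Named are all members, up to 4 genes per list with the smallest p in a comparison, and the 3 genes most correlated with a member; other genes were named after their values were seen. Some genes that this rule names are not reported here.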

Additional observations from a re-analysis of the deposited data

Results flagged for a closer look

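The tumor effect differed between EBi3KO and WT mice, by the interaction term of limma with adjustment over all tested genes, for 7 of the 10 factors. The log2 difference between the effects (EBi3KO minus WT) was -1.76 for Ikzf3 (adjusted p = 0.000106), -1.63 for Bach2 (adjusted p = 0.000117) and -1.40 for Ebf1 (adjusted p = 0.00147). It was smaller for Ets1 (-0.53, adjusted p = 0.00792), Bcl6 (-0.51, adjusted p = 0.00458) and Spib (-0.47, adjusted p = 0.00621), and positive for Irf8 (0.35, adjusted p = 0.0202). Quantile normalization gave -1.42 for Ets1, beyond Ebf1 (-1.31), and -1.01 for Spib, and the length-GC correction gave -0.78 for Bach2 and -0.86 for Ebf1. The call of Ets1 ended with the length-GC correction (-0.13, adjusted p = 0.318), and that of Irf8 without either EBi3KO tumor library or WT tumor replicate 2 and with the EBi3KO tumor libraries averaged (adjusted p = 0.085). The share called over all genes was 52.9%. The interaction holds the difference in sex and title prefix of the WT tumor libraries, which cannot be told apart from genotype.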

How the results depend on the processing

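Each member had at least 13880 reads over the 8 libraries, and each group held 2 libraries. In the tumor effect in EBi3KO, 1 member was called, against 4 with quantile normalization, 4 with the compared libraries alone, 2 with edgeR, 2 with DESeq2 and 1 to 3 without 1 library; over all genes 4242 were called, against 2375 without the variance trend, 733 with the EBi3KO tumor libraries averaged and 756 to 5313 without 1 library. The genotype effect in nontumor mice had 0 genes called, 21 with DESeq2 and 0 to 5 without 1 library.

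Signs turned as follows, and the cause was not tested. Quantile normalization gave 0.12 for Spib in EBi3KO tumor, 0.002 for Irf8 in WT tumor and 0.024 for Pax5 between genotypes in tumor mice. The length-GC correction gave -0.043 for Pax5 and -0.048 for Ikzf1 in EBi3KO tumor; -0.44, -0.19, 0.051 and -0.25 for Pax5, Ikzf1, Tcf3 and Tcf4 in WT tumor; 0.55, 0.15, -0.16 and 0.11 for the same genes between genotypes in tumor mice; 0.40, 0.14 and -0.14 for Pax5, Ikzf1 and Tcf3 in the interaction; and -0.025 for Ets1 and -0.025 for Tcf3 in nontumor mice. Upper-quartile scaling (-0.009) and DESeq2 (-0.006) turned Tcf3 in nontumor mice. Without 1 library, values ran from -0.048 to 0.10 for Ikzf1 and -0.08 to 0.38 for Pax5 in EBi3KO tumor and, in nontumor mice, from -0.091 to 0.099 for Tcf3, -0.066 to 0.12 for Ets1, -0.017 to 0.14 for Ikzf1, -0.027 to 0.54 for Ebf1 and -0.026 to 0.18 for Ikzf3.

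Over all alternatives, member values kept direction and call 182 times in the tumor effect in EBi3KO (13 gained a call, 5 turned), 206 times in that in WT (10 lost the call, 4 turned), 179 times between genotypes in tumor mice (14 lost, 3 gained, 4 turned), 188 times in nontumor mice (12 turned) and 178 times in the interaction (5 lost, 4 gained, 3 turned).

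Title numbers 7 and 8 recur in WT tumor and WT nontumor, and deviations of same-numbered libraries correlated at -0.256. With 2 libraries per group this value cannot show whether they pair. With the replicate block 9305 genes and 7 members were called in the tumor effect in WT, against 10378 and 10, with Spib (adjusted p = 0.0555), Ikzf1 (0.106) and Irf8 (0.235) lost; with crossed numbers, chosen after the data were seen, 10678 genes and 10 members were called.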
